A study of Homo sapiens with 6 samples.

Results

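The 10 genes described here encode the core of transforming growth factor beta (TGF-beta) and bone morphogenetic protein (BMP) signalling: the ligand TGFB1, the receptors TGFBR1, TGFBR2 and BMPR2, the signal transducers SMAD2, SMAD3, SMAD4, SMAD5 and SMAD7, and the nuclear co-repressor SKI. They were chosen by gene symbol, and each of the 10 was found among the 60640 gene identifiers of the expression tables. RNA-seq of polyadenylated RNA had been performed on MOLT-4, a widely used cell line from human T-cell acute lymphoblastic leukemia, grown in RPMI1640 with fetal bovine serum, in 3 libraries of wild type cells (the control of the CRISPR knockout) and 3 libraries labelled IK-KO, where CRISPR had been aimed at IKZF1, which encodes the zinc finger factor IKAROS. The edited cells and their control were bought as a line, the labels name no clone, and nothing says whether the 3 libraries of a group came from separate cultures. All p-values therefore measure the spread between these libraries, which may be technical, and a clone cannot be told apart from the edit.

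TGF-beta is secreted in a latent form and, once released, is bound by the type II receptor TGFBR2, which recruits and phosphorylates the type I receptor TGFBR1. TGFBR1 phosphorylates SMAD2 and SMAD3, BMP receptors with BMPR2 as the type II chain act on SMAD1, SMAD5 and SMAD9, and both arms use SMAD4 to reach target genes in the nucleus. SMAD7 is an inhibitory SMAD and SKI represses SMAD target genes. In T cells TGF-beta is known for restraining proliferation and for steering differentiation.

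Levels are given in FPKM, fragments scaled to a transcript of 1 kilobase and to 1000000 mapped fragments, which are already per length and so may be compared between genes. Changes are differences of log2(FPKM + 1), IK-KO minus wild type, which understate the change of genes with low FPKM. They were tested with limma over 12652 genes, those whose FPKM averaged 1 or more, and a gene was called when its Benjamini-Hochberg adjusted p was under 0.05. Between 21254 and 21887 rows were above 0 per library, relative depths lay between 0.901 and 1.09, and 3 fragments in a transcript of 1 kilobase correspond to an FPKM between 0.154 and 0.186. IKZF1 RNA was not lower in the libraries labelled IK-KO: it was 134, 124 and 105 FPKM in wild type and 207, 260 and 207 FPKM in the IK-KO-labelled libraries (log2 change 0.89, SE 0.12, limma adjusted p = 0.00295). RNA level is no measure of the edited protein. The study's methods state that the knockout was checked by PCR and western blot, and its supplement shows a blot of a pair of knockout clones, without saying which was sequenced, so the direction of every change below rests on the labels. Of 10 T-lineage markers 10 had a mean FPKM of at least 1, with summed levels of 1299 to 1364 FPKM in wild type and 1389 to 1557 FPKM in the IK-KO-labelled libraries. Of these 10 markers 4 were called lower (CD2, CD4, CD5 and CD7), or 40%, beside 9.75% of all tested genes. Another 4 were called higher (CD3D, CD3G, CD1A and PTCRA), or 40%, beside 10.1%. The largest change was in CD2, from 61.5 to 5.14 FPKM. The part of these markers in the results below was not tested. None of 4 B-lineage or 5 myeloid markers and 1 of 6 stromal and epithelial markers (PECAM1) reached that level. In such bulk samples fewer cells of a type and less RNA per cell cannot be told apart.

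Among the 10 genes TGFBR2 was the one called, with a ratio of 0.52 between its mean in the IK-KO-labelled libraries and in wild type. BMPR2 and SMAD3 were higher in each library labelled IK-KO than in each wild type library without passing the test, SMAD7 was near 0 throughout, and the groups of the other 6 overlapped. Thus 1 of the 9 tested genes was called, or 11.1%, beside 19.9% of all tested genes, with 10.1% of all tested genes called higher and 9.75% called lower. Groups did not overlap in 3 of the 9, or 33.3%, beside 39.0% of all tested genes. The median change of the 9 was 0.04, beside 0.02 over all tested genes, and 6 of the 9 changes were above 0. Both shares lay below those of all tested genes, but with 9 genes they are too coarse to be read as a result.

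**Figure D1:**
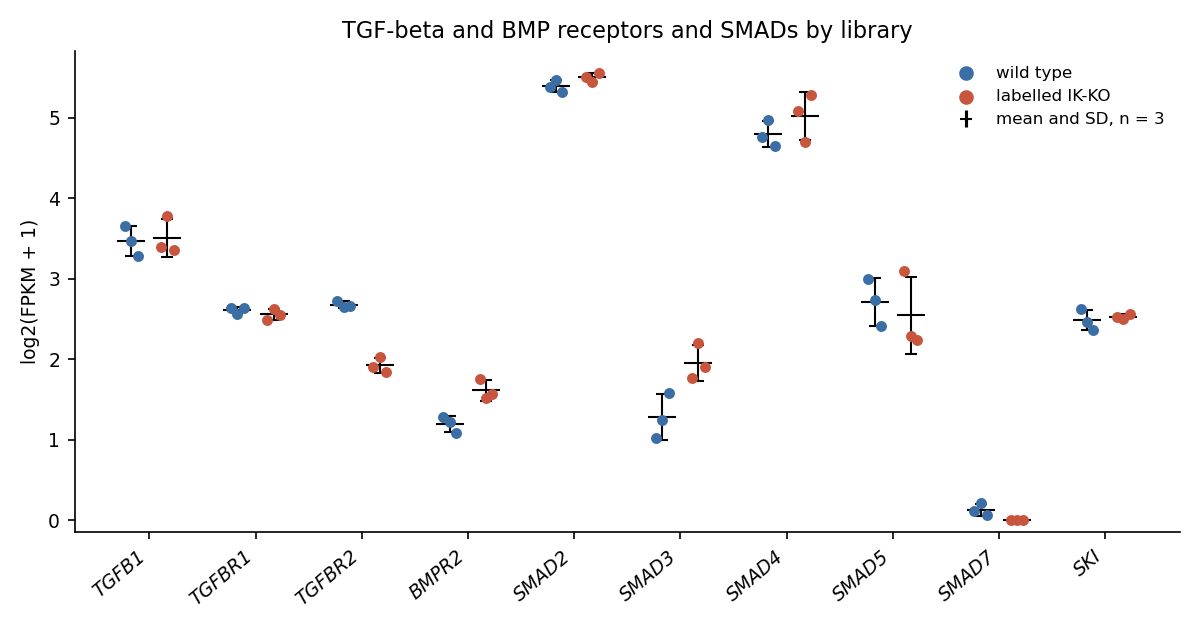
Level of each of the 10 genes as log2(FPKM + 1) in each of the 6 libraries (points), with the mean and SD of each group of 3 (bars). TGFBR2 is lower in all 3 libraries labelled IK-KO, BMPR2 and SMAD3 are higher in all 3, and SMAD7 lies close to 0 in both groups.

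The start regions of both type II receptors are shown because TGFBR2 was called lower and BMPR2, which was not called, was higher in each library labelled IK-KO than in each wild type library. They are the 250 bases before the 5'-most RefSeq start of each gene (GRCh38.p14, plus strand), chr3:30606106-30606355 for TGFBR2 and chr2:202376077-202376326 for BMPR2, printed 5' to 3'. Capitals mark TGGGAA, the core of the IKAROS motif, CAGAC, the SMAD box, and GGCGCC, a GC-rich SMAD site, on either strand.
TGFBR2: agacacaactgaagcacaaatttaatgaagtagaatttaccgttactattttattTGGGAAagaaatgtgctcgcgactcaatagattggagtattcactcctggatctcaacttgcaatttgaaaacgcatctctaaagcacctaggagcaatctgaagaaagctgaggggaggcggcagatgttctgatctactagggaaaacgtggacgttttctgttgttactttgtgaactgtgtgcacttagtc
BMPR2: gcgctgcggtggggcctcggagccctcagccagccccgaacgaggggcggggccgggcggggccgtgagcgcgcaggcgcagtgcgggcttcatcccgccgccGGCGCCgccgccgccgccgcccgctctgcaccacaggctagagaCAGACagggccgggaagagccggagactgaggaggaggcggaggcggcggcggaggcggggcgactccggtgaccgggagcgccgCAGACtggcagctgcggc
TGFBR2 held 1 TGGGAA, 195 bases before its start, and no SMAD motif, and its window had a GC content of 40.8%. BMPR2 held CAGAC 103 and 18 bases before its start and GGCGCC 147 bases before it, with a GC content of 79.2%. Of 34788 windows of this length over all genes, 20.8% held TGGGAA, 38.0% held CAGAC and 16.4% held GGCGCC on either strand. The TGFBR2 match depends on the start chosen. Windows were first taken at the RefSeq start nearest the gene start of the tables, where TGFBR2 (chr3:30606351-30606600) held none of the 3 motifs, and were moved to the 5'-most start after those counts had been seen, because the first TGFBR2 window lay downstream of another RefSeq start. The move also took TGFBR1 from 1 CAGAC to 0 and changed no count of the other 7 genes. Of the 9 genes with an entry, SMAD5 held TGGGAA at 2 positions. A match of letters is a description and shows no binding.

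TGFB1 (ENSG00000105329.10, chromosome 19, 41301587 to 41353922, minus strand) encodes the ligand. It was at 11.6, 10.1 and 8.75 FPKM in wild type and 9.52, 12.7 and 9.20 FPKM in the IK-KO-labelled libraries. The groups overlapped, and the difference was smaller than the spread between libraries (log2 change 0.04, 95% interval -0.30 to 0.38, limma adjusted p = 0.885).

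TGFBR2 (ENSG00000163513.19, chromosome 3, 30606601 to 30694142, plus strand), the type II receptor that binds TGF-beta, was at 5.6, 5.26 and 5.33 FPKM in wild type. It was at 2.75, 3.08 and 2.59 FPKM in the IK-KO-labelled libraries. No library of one group came near the other, and the lower confidence bounds of the wild type libraries, 4.66 to 4.96 FPKM, lay above the upper bounds of the others, 3.05 to 3.58 FPKM. The means were 5.40 ± 0.182 and 2.80 ± 0.248 FPKM (SD, n = 3), and the gene fell (log2 change -0.75, SE 0.11, 95% interval -1.0 to -0.50, limma adjusted p = 0.00344).

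TGFBR1 (ENSG00000106799.13, chromosome 9, 99104038 to 99154192, plus strand) encodes the type I receptor that TGFBR2 activates. It was at 5.20, 4.91 and 5.23 FPKM in wild type and 4.62, 5.19 and 4.87 FPKM in the IK-KO-labelled libraries. The groups overlapped (log2 change -0.05, 95% interval -0.28 to 0.17, limma adjusted p = 0.738). Its surroundings on chromosome 9 differed from those of the other receptors: of its 50 nearest tested genes, within 5.80 Mb, 44 were lower and 6 higher, with a median change of -0.32. With the median deviation of these genes removed from each library, the change of TGFBR1 was 0.29, with its sign turned (limma adjusted p = 0.0982). The neighbours of TGFBR2 had a median change of 0.01 and those of BMPR2 of 0.05.

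**Figure D2:**
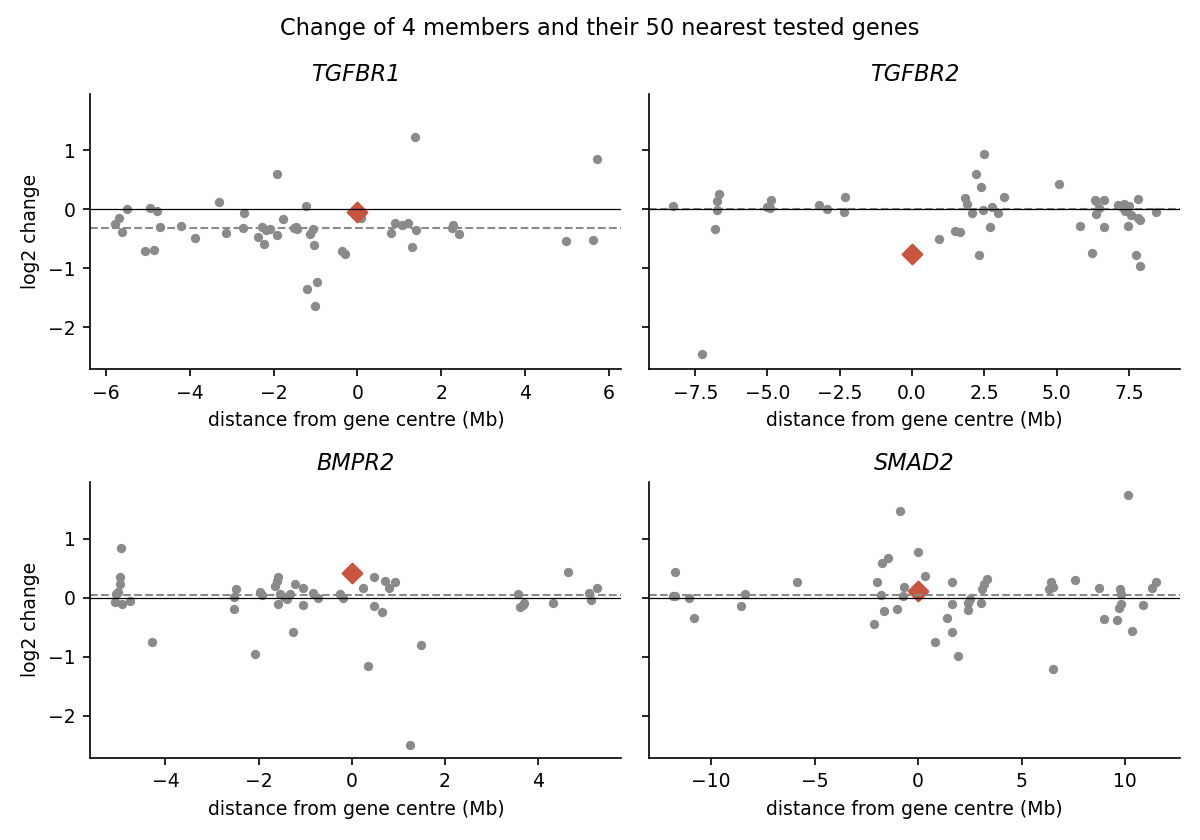
Log2 change of FPKM + 1 of TGFBR1, TGFBR2, BMPR2 and SMAD2 (red diamonds) and of the 50 tested genes nearest to each (grey points) against the distance from the gene's centre in Mb, with the neighbours' median dashed. Around TGFBR1 the median is -0.32, and around TGFBR2 it is 0.01.

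BMPR2 (ENSG00000204217.15, chromosome 2, 202376327 to 202567751, plus strand), the type II receptor of BMPs, was at 1.42, 1.34 and 1.12 FPKM in wild type. It was at 2.39, 1.86 and 1.96 FPKM in the IK-KO-labelled libraries. The groups did not overlap, but the gene was not called (log2 change 0.42, SE 0.15, 95% interval 0.07 to 0.77, limma adjusted p = 0.0934). It passed the test only when the spread was moderated without a mean-variance trend (adjusted p = 0.0307, with 0.0307 to 0.240 over 14 alternatives).

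SMAD2 (ENSG00000175387.16, chromosome 18, 47808957 to 47931146, minus strand) and SMAD3 (ENSG00000166949.16, chromosome 15, 67063763 to 67195169, plus strand) carry the TGF-beta signal. SMAD2 was the most abundant of the 10 in both groups, at 40.7, 43.3 and 38.8 FPKM in wild type and 44.4, 42.6 and 45.9 FPKM in the IK-KO-labelled libraries. Its groups overlapped (log2 change 0.11, 95% interval -0.04 to 0.26, limma adjusted p = 0.263). SMAD3 was far lower, at 1.02, 1.37 and 1.99 FPKM in wild type and 2.40, 3.59 and 2.73 FPKM in the IK-KO-labelled libraries. These groups did not overlap, yet SMAD3 missed the threshold (log2 change 0.67, SE 0.20, 95% interval 0.21 to 1.14, limma adjusted p = 0.0532). It was called in 1 of 14 alternatives, without wild type replicate 3 (log2 change 0.82, limma adjusted p = 0.0383, with 0.0383 to 0.153 over the 14). Its confidence bounds were wide, from 0.00905 to 2.03 FPKM in wild type replicate 1 and from 1.82 to 5.36 FPKM in IK-KO replicate 2.

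SMAD4 (ENSG00000141646.14, chromosome 18, 51028394 to 51085045, plus strand), the SMAD shared by both arms, was at 26, 30.5 and 24.2 FPKM in wild type and 33.0, 25 and 37.9 FPKM in the IK-KO-labelled libraries. SMAD5 (ENSG00000113658.18, chromosome 5, 136132845 to 136188747, plus strand), a BMP-arm SMAD, was at 7.0, 5.67 and 4.30 FPKM and at 7.55, 3.89 and 3.73 FPKM. Both overlapped between groups. The log2 change of SMAD4 was 0.23 (95% interval -0.14 to 0.59, limma adjusted p = 0.355). That of SMAD5 was -0.17, and its interval of -0.78 to 0.44 was the widest of the 9. With a library left out it ranged from -0.45 (without IK-KO replicate 1) to -0.02 (without IK-KO replicate 3), with -0.03 without wild type replicate 1, -0.05 without IK-KO replicate 2 and -0.33 without wild type replicate 3. SMAD4 ranged from 0.10 (without IK-KO replicate 3) to 0.39 (without IK-KO replicate 2). Neither was called in any of these fits.

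SMAD7 (ENSG00000101665.9, chromosome 18, 48919853 to 48952052, minus strand), the inhibitory SMAD, was at 0.0782, 0.156 and 0.0479 FPKM in wild type and was listed at 0 in each library labelled IK-KO. Its mean was below the level of 1 FPKM required for the test, so it was not tested. The lower confidence bound was 0 in all 3 wild type libraries, and a difference was not detectable at this depth. SKI (ENSG00000157933.10, chromosome 1, 2228319 to 2310213, plus strand) was at 5.14, 4.52 and 4.16 FPKM in wild type and 4.75, 4.64 and 4.88 FPKM in the IK-KO-labelled libraries. Its groups overlapped (log2 change 0.04, 95% interval -0.21 to 0.29, limma adjusted p = 0.831), and the confidence bounds of a single library reached from 0 to 9.56 FPKM.

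**Figure D3:**
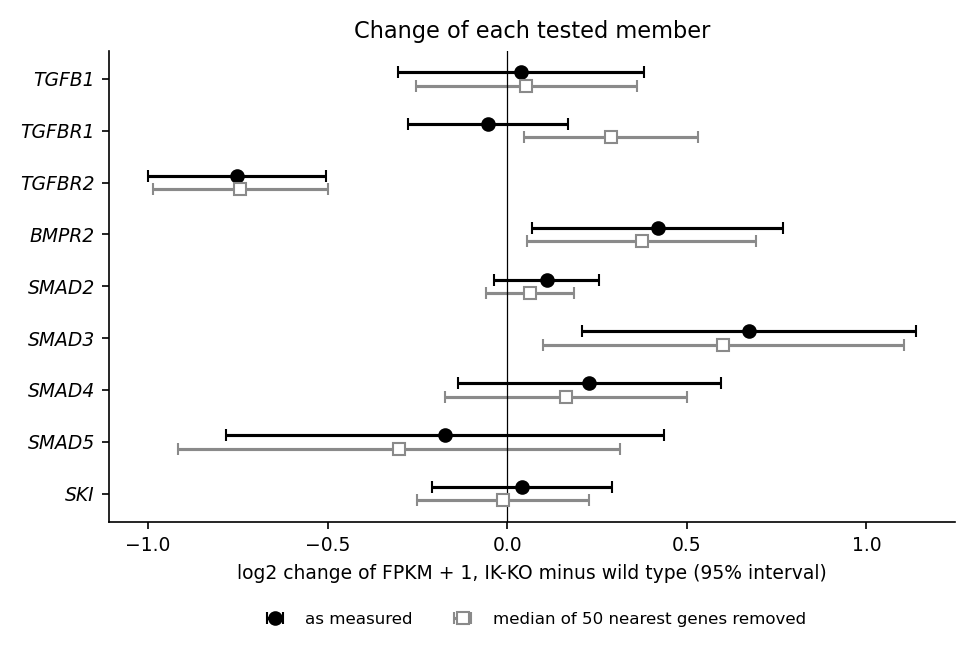
Log2 change of FPKM + 1, IK-KO minus wild type, of the 9 tested genes with its 95% interval, as measured (black) and with the median deviation of the 50 nearest genes removed (grey). TGFBR2 lies at -0.75 as measured, and TGFBR1 moves from -0.05 to 0.29.

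In wild type the levels ran from SMAD2 through SMAD4, TGFB1, SMAD5, TGFBR2, TGFBR1, SKI, SMAD3 and BMPR2 to SMAD7. The neighbours SMAD5 and TGFBR2, TGFBR1 and SKI, and SMAD3 and BMPR2 overlapped in their ranges. These ranges leave out the confidence bounds within a library. In wild type replicate 3 the bounds of SKI, 0 to 9.33 FPKM, covered those of SMAD3, 0.614 to 3.37 FPKM, so the place of SKI is uncertain. In the libraries labelled IK-KO TGFBR2 stood between SMAD3, with which it overlapped, and BMPR2, while SMAD5, TGFBR1 and SKI overlapped in turn.

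Ratios within a library show how the receptor chains stood to each other. TGFBR2 over TGFBR1 was 1.08, 1.07 and 1.02 in wild type and 0.595, 0.593 and 0.532 in the libraries labelled IK-KO (exact permutation test, two-sided, p = 0.1, the smallest that 3 against 3 can give). BMPR2 over TGFBR2 was 0.254, 0.254 and 0.210 against 0.869, 0.604 and 0.756 (exact permutation p = 0.1). BMPR2 was higher and TGFBR2 lower in every library labelled IK-KO, so this ratio had to separate. Its p was fixed by the values given above and adds no test. SMAD3 made up 2.44%, 3.07% and 4.88% of SMAD2 plus SMAD3 in wild type and 5.13%, 7.77% and 5.62% in the libraries labelled IK-KO (exact permutation p = 0.1). The sum of SMAD2 and SMAD3 over that of SMAD1, SMAD5 and SMAD9 was 2.33 ± 0.280 and 2.33 ± 0.169 (SD, n = 3, exact permutation p = 0.9). With ID1 over ID3, given below, 5 such ratios were computed, and none can pass 0.05 in this design.

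Over the 6 libraries the genes outside the pathway lists whose log2(FPKM + 1) followed TGFBR2 most closely were ASTN2 (Pearson r = 0.999, 2.76 FPKM in wild type and 1.0 FPKM in the IK-KO-labelled libraries), FAM117A (22.4 and 13.3 FPKM) and UHRF2 (36.5 and 29.6 FPKM, r = 0.998). These libraries share the group difference, and the r values are given as a description.

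The wider pathway was read from 10 lists by role, 141 genes with the 10 included. The study names this pathway as altered in these cells, so the lists are not independent of the data. Of the 75 tested, 16 were called, or 21.3% beside 19.9% of all tested genes: 9 higher (12%) and 7 lower (9.33%), with a median change of 0.05. Among the 7 lower, LTBP1, THBS1, PCSK5, GDF10 and PMEPA1 passed the filter only through wild type, so the split by direction depends on the filter. With a mean FPKM of at least 5 required, 8 were called higher and 1 lower, beside 1114 and 901 of all genes tested. A further 24 of the 141 were listed at 0 in every library.

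Genes that store and release the ligand were lower where called: 3 of 8 tested fell (37.5%, beside 9.75% of all tested genes) and none rose. The median change was -0.38. The 3 averaged under 1 FPKM in the libraries labelled IK-KO and passed the filter only through wild type. The filter thus favoured falls, and this share cannot decide on a direction. With no filter on low values the 3 were still called (limma adjusted p = 0.0102 for LTBP1, 0.0433 for THBS1 and 0.0333 for PCSK5). With neighbours removed, 1 of the 3 was lost, as given below for PCSK5. LTBP1, which tethers latent TGF-beta to the matrix, fell from 3.79, 5.38 and 5.07 to 0.716, 0.847 and 1.18 FPKM, with no overlap (log2 change -1.58, SE 0.17, limma adjusted p = 0.0011). THBS1, an activator of latent TGF-beta, fell from 3.01 to 0.878 FPKM (limma adjusted p = 0.0098). Its confidence bounds were wide and overlapped between groups, at 1.42 to 3.34 FPKM in wild type replicate 2 and 0.10 to 2.56 FPKM in IK-KO replicate 3. PCSK5, a proprotein convertase on chromosome 9, fell from 2.38 to 0.898 FPKM, but 43 of its 50 nearest tested genes were lower too, and with their median deviation removed it was not called (log2 change -0.47, limma adjusted p = 0.0801). NRROS, which anchors latent TGF-beta on leukocytes, was at 84.1 and 89.7 FPKM and was not called. Of 33 ligands 4 were tested and 1 was called (25%, beside 19.9% of all tested genes). This was GDF10, which fell from 1.92 to 0.916 FPKM (limma adjusted p = 0.0392), a call lost in 9 of 14 alternatives. GDF10 too passed the filter only through wild type. None of 5 tested extracellular antagonists was called, beside 19.9% of all tested genes, the most abundant being FSTL1 at 14.5 and 14.8 FPKM.

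Of the other receptors, BMPR1A was at 10.3 and 10.0 FPKM, ACVR1B at 9.10 and 10.1 FPKM and ACVR2B at 5.84 and 5.15 FPKM, none called. The co-receptor RGMA, which binds BMPs, fell from 13.9 to 10.0 FPKM (log2 change -0.43, limma adjusted p = 0.0124). SMAD1 was at 12.4 and 14.8 FPKM, with groups that did not overlap and no call (limma adjusted p = 0.0940). SMAD6 and SMAD9 were below the level tested.

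**Figure D4:**
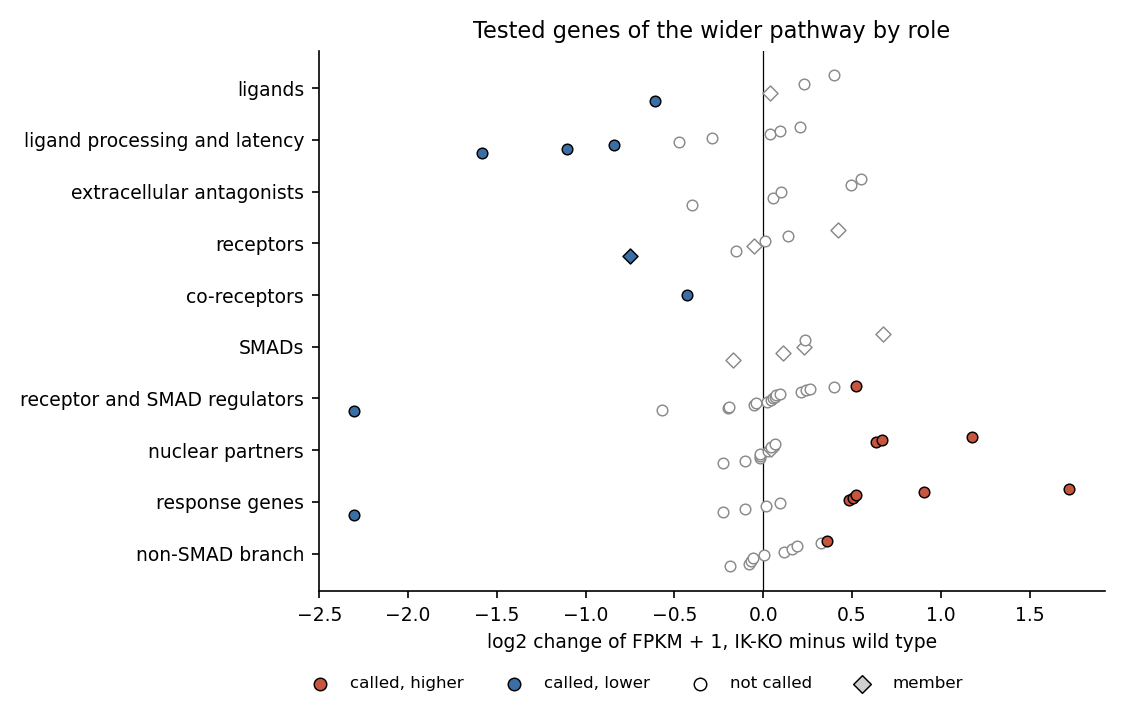
Log2 change of FPKM + 1 of each tested gene of the 10 role lists, 1 row a list, with called genes filled (red higher, blue lower) and the 10 genes of the opening as diamonds. Genes in more than 1 list are drawn in each; 3 called genes of ligand processing lie below 0, and 5 of the 6 called response genes lie above 0.

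Of the response genes 5 of 10 tested rose (50%, beside 10.1% of all tested genes) and 1 fell (10%, beside 9.75%), with a median change of 0.29. The 1 that fell was PMEPA1, which passed the filter only through wild type, so it cannot be weighed against the rises. PMEPA1 and LDLRAD4, which rose, are also in the list of regulators and are given with it below. ID1, an inhibitor of basic helix-loop-helix factors induced by BMPs, was at 35.6, 40.3 and 28.3 FPKM in wild type and 119, 118 and 110 FPKM in the IK-KO-labelled libraries. Its groups lay far apart (log2 change 1.72, SE 0.12, limma adjusted p = 0.000189). Its relative ID3 rose from 118 ± 3.89 to 165 ± 7.21 FPKM (SD, n = 3, limma adjusted p = 0.00107), and ID1 over ID3 went from 0.295 ± 0.0434 to 0.702 ± 0.00992 (SD, n = 3, exact permutation p = 0.1). CDKN1A, a cyclin-dependent kinase inhibitor, rose from 2.27 to 5.16 FPKM (limma adjusted p = 0.00869). Of its 50 nearest tested genes on chromosome 6, 37 were higher too, with a median change of 0.19. CDKN1A was called in all 14 alternatives that tested it, neighbours removed among them (log2 change 0.71 to 1.14). JUNB, named after its values were seen, rose from 9.72 to 14.2 FPKM (limma adjusted p = 0.0343), a call lost in 7 of 15 alternatives.

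PMEPA1, a TGF-beta target that restrains SMAD signalling, was at 4.70, 3.60 and 4.46 FPKM in wild type. In the libraries labelled IK-KO it was listed at 0, at 0.172 and at 0.0196 FPKM. This was the largest change of the tested pathway genes (log2 change -2.30, SE 0.16, limma adjusted p = 0.000199). PMEPA1 passed the filter only through wild type, and with no filter on low values it was still called (limma adjusted p = 0.00241). LDLRAD4, another inhibitor of TGF-beta signalling, rose from 39.3 to 56.6 FPKM (limma adjusted p = 0.00684). These were the called genes among 17 regulators of receptors and SMADs, or 11.8%, beside 19.9% of all tested genes. The most abundant of the 17, FKBP1A, was at 380 and 367 FPKM.

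Among the nuclear partners of SMADs 3 of 12 tested rose and none fell, so 25% were called, beside 19.9% of all tested genes (10.1% higher). The co-repressors TGIF1 and TGIF2 rose from 11.5 to 26.7 FPKM (log2 change 1.18, limma adjusted p = 0.00485) and from 24.4 to 38.4 FPKM (log2 change 0.63, limma adjusted p = 0.00209). E2F5 rose from 7.56 to 12.6 FPKM (limma adjusted p = 0.0125). TFDP1 was at 115 and 113 FPKM. In the branch that does not use SMADs 1 of 10 genes was called, or 10%, beside 19.9% of all tested genes. This was the adaptor TRAF4, at 30.7 and 39.6 FPKM (limma adjusted p = 0.0223), a call lost in 6 of 15 alternatives. Of the 50 tested genes nearest to TRAF4 45 were lower (median change -0.25). With their median deviation removed, the log2 change of TRAF4 went from 0.36 to 0.63 (limma adjusted p = 0.00241). RHOA was at 299 and 283 FPKM.

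**Figure D5:**
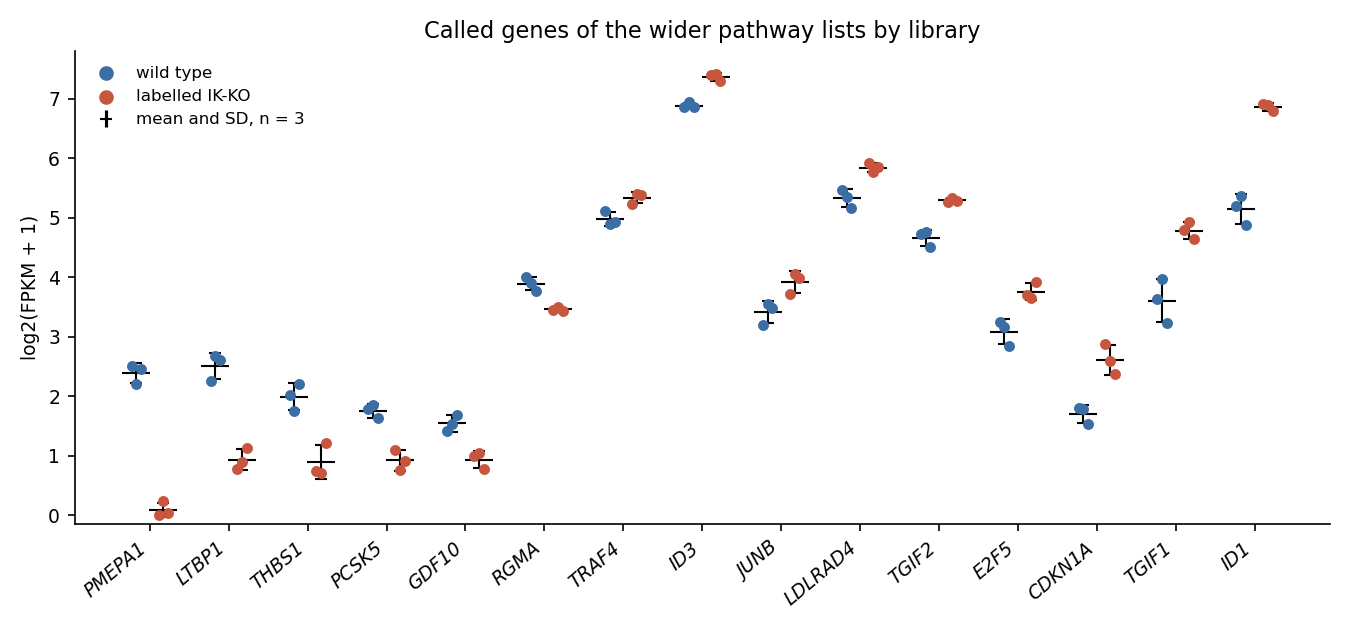
Level as log2(FPKM + 1) of the 15 called pathway genes other than TGFBR2 in each of the 6 libraries (points), with the mean and SD of each group of 3 (bars). The groups of each of the 15 are apart, 6 lower and 9 higher in the libraries labelled IK-KO.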

How the data were processed

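RNA-seq was analysed in 3 wild type and 3 IK-KO libraries of MOLT-4, grouped by their labels. The deposited files hold FPKM per gene with confidence bounds and an estimation status, scaled by the authors for length and depth. The submitters' processing notes name STAR 2.6.1c, Cufflinks 2.2.1, HOMER 4.10 and hg38, with no order; the annotation and strand setting are not given in the sources used here, so overlapping genes are uncertain. The RNA-seq methods of the study describe mouse counts and do not match these tables, so limma was used.

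Rows of one identifier were summed (110 identifiers), and 29 genes with a row not estimated were left out. log2(FPKM + 1) was fitted with limma 3.58.1 in R 4.3.3 (eBayes with trend, two-sided, Benjamini-Hochberg over 12652 genes). The code was tested on simulated data. No counts are given; relative depth came from the confidence bounds, and limits cover counting error only. Promoter windows came from RefSeq; 9 of the 10 genes had an entry and SKI had none. The GGCGCC count was corrected once, since a motif equal to its reverse complement had been skipped.

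The members and lists were chosen with earlier results of these data known. Named were the 10 genes, IKZF1, other tested receptors and SMADs, per other list up to 3 called genes of largest change and the most abundant, and the 3 genes most like TGFBR2. Replicate numbers were not used to pair the libraries in the main fit. Alternatives changed the pseudocount, filter, scaling, trend, libraries, replicate block, status filter and neighbours.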

Additional observations from a re-analysis of the deposited data

How the results depend on the processing

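TGFBR2 was called in all 14 alternatives that tested it (log2 change -0.92 to -0.71, limma adjusted p 0.00196 to 0.0209). With a mean FPKM of at least 5 required it was not tested, and 0 of 5 tested members were called. The called pathway genes were then 9 of 53, 8 higher and 1 lower. Of all genes tested under that filter 2015 of 8974 were called, 1114 higher and 901 lower. Members called were 2 without a trend (BMPR2 0.42, adjusted p = 0.0307) and 1 to 2 with a library left out, where wild type replicate 3 decided SMAD3 (0.54 to 0.82 over the 6 libraries left out). Called genes were 1720 to 2804 over 15 alternatives. Signs turned for TGFB1 (-0.05 without wild type replicate 3, -0.09 without IK-KO replicate 2), SKI (-0.02 without wild type replicate 3, -0.01 with neighbours removed) and TGFBR1 (0.29 with neighbours removed), none of them called, with ranges of -0.09 to 0.13 for TGFB1 and -0.02 to 0.11 for SKI; the cause was not tested. SMAD7 was -0.92 with a pseudocount of 0.1.

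With the replicate number as a block, 1805 genes, 1 member (TGFBR2, -0.75) and 14 pathway genes were called. Deviations of same-numbered libraries correlated at 0.067, 0.025 and 0.005, so no pairing by number was seen in the values. The labels do not say whether same-numbered libraries were handled together.

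Chosen after seeing the data were the ratios with a library left out and the second choice of promoter windows. The log2 ratio of TGFBR2 over TGFBR1 ranged from -0.91 to -0.83, and that of SMAD2 plus SMAD3 over SMAD1, SMAD5 and SMAD9 from -0.09 to 0.07. Wide confidence bounds limit SMAD7, SMAD3, SKI and THBS1.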
